A study of Mus musculus with 6 samples.

Results

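The 10 aquaporin genes Aqp1 to Aqp9 and Aqp11 were described in bulk RNA sequencing of mouse inner ear. They were chosen by gene symbol alone, as 10 of 55401 genes in the count table, and not by any measured value. Libraries came from wild-type mice (WT, n = 3 libraries) and from mice with the genotype written as Pou3f4y/-, mutant for the X-linked POU-domain transcription factor Pou3f4 of the mesenchyme around the ear (KO, n = 3 libraries). The labels say that the tissue was whole inner ear with all its cell types, and give no strain, age, sex, dissection or drug, nor the part of Pou3f4 that the mutant allele lacks. Separate animals behind the libraries are not stated either, so p-values measure only the spread between these samples, which may be partly technical.

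Aquaporins are membrane channels with a pore in each monomer, and they assemble as tetramers. The classical members carry water, and Aqp3, Aqp7 and Aqp9 (the aquaglyceroporins) also carry glycerol. Aqp11 belongs to a divergent branch found on intracellular membranes. In the cochlea, Aqp1 is known from fibrocytes of the spiral ligament and mesenchymal cells, Aqp4 from the basal membranes of supporting cells and Aqp5 from the outer sulcus. Together these sites lie along routes by which water can follow ions between perilymph and endolymph. Pou3f4 acts in the mesenchyme from which the ligament fibrocytes arise.

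Promoter windows were read for 9 of the 10 genes from RefSeq (build GRCm38.p6), each covering the 250 bases before the annotated start. The windows of Aqp1, the most abundant member, and Aqp3, whose counts ran from 3 to 345 between WT libraries, are shown 5′ to 3′ in the direction of the gene, with motif matches in capitals.
Aqp1 (chr6:55336049-55336298, plus strand): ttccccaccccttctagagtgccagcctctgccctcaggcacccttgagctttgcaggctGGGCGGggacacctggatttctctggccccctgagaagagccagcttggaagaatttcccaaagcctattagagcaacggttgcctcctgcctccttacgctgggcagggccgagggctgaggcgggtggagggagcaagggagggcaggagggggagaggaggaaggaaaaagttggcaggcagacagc
Aqp3 (chr4:41098184-41098433, minus strand): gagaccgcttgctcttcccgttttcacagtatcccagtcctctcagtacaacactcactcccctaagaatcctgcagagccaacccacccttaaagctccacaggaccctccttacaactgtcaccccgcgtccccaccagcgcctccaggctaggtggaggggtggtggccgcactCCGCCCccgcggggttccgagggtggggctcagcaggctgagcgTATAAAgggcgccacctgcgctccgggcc
Both strands were searched for the octamer bound by POU factors (ATGCAAAT), the TATA box (TATAAA), the CCAAT box (CCAAT), the GC box (GGGCGG, or CCGCCC on the other strand) and the direct repeat DR1 of nuclear receptors. No 2 matches overlapped in the windows shown. The Aqp3 window held a TATA box that began 29 bases before the start and a GC box 73 bases before it. The Aqp1 window held a GC box 190 bases before the start. Among all 32851 windows, 12.4% held the TATA box and 32.7% the GC box. The octamer was in 1.60% of all windows, the CCAAT box in 33.8% and DR1 in 0.0335%. None of the windows of the 9 aquaporins, of which Aqp7 and Aqp9 have more than 1, held any of these 3 motifs, which says only that these letters are not there.

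Library totals ranged from 18409409 to 23323953 counts. Levels are in CPM, counts relative to the library total after scaling by the TMM method, and a count of 0 allows up to 3 counts, or 0.131 to 0.168 CPM, for counting error only. Pou3f4 held 1044 to 2233 counts in WT and 28 to 45 in KO. Genes of the ear were present in every library, such as Coch of spiral ligament fibrocytes (203 to 854 CPM) and Otoa of the sensory epithelium (19.3 to 53.0 CPM). WT replicate 1 stood apart from the other libraries in several marker lists, given beside the results they move with. Over the 19687 genes tested, WT libraries varied more than KO libraries, with a median coefficient of variation (SD over mean) of 17.3% against 7.69%. Xist, the RNA that coats the inactive X chromosome, held 9143 to 15783 counts in WT replicates 1 and 2 and KO replicates 2 and 3, against 6 counts in WT replicate 3 and 1 in KO replicate 1. The y in the KO genotype denotes a male with a single X chromosome, so the Xist counts of KO replicates 2 and 3 go against that label, while their Pou3f4 counts do not. With Xist as a term in the fit, the 6 tested aquaporins kept their direction and 0 passed the threshold (adjusted p of 0.239 to 0.819, edgeR).

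Aqp1 and Aqp4 made up nearly all aquaporin transcripts of the inner ear in both genotypes. Their combined share of aquaporin reads was 94.8% to 96.2% in 5 libraries and 85.3% in WT replicate 1. Per length of annotated exon, the scale on which genes can be compared, the level of Aqp1 was 94.1 ± 8.62 CPM per kb in WT and 80.2 ± 12.1 CPM per kb in KO (SD, n = 3 each). The level of Aqp4 was 19.4 ± 8.27 and 15.7 ± 3.46 CPM per kb. The length-scaled ratio of Aqp1 to Aqp4 ran from 3.61 to 7.66 in WT and from 3.94 to 7.23 in KO, so the ranges of the genotypes overlapped.

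The other members lay far below, and their order rested on WT replicate 1. In WT the means per kb were 3.77 for Aqp3, 2.06 for Aqp7, 1.75 for Aqp5, 1.48 for Aqp9 and 0.777 for Aqp11, and the SD of Aqp3 (5.87) and Aqp7 (2.24) exceeded their means. Neighbours in that order from Aqp3 to Aqp9 did not differ beyond their SD, and the libraries of Aqp9 (SD 0.665) and Aqp11 (SD 0.240) overlapped. Within each WT library, though, Aqp9 lay above Aqp11 per kb of annotated exon. Without WT replicate 1 the order was Aqp9, Aqp11, Aqp5, Aqp7 and Aqp3. In KO it was Aqp9 (1.28 ± 0.285), Aqp11 (0.630 ± 0.0316), Aqp5 (0.517 ± 0.116), Aqp2 (0.217 ± 0.0513) and Aqp7 (0.170 ± 0.0156 CPM per kb, SD, n = 3). Aqp9 stood above its neighbour by more than the spread there, while Aqp11 and Aqp5 did not differ beyond their SD, nor did Aqp2 and Aqp7. Aqp6, Aqp8 and, in KO, Aqp3 were at or near the level of 3 counts. With the longest coding transcript as the length, Aqp1 and Aqp4 stayed in the first and second places, Aqp7 moved below Aqp5 and Aqp9 in WT, and the order in KO was the same.

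**Figure D1:**
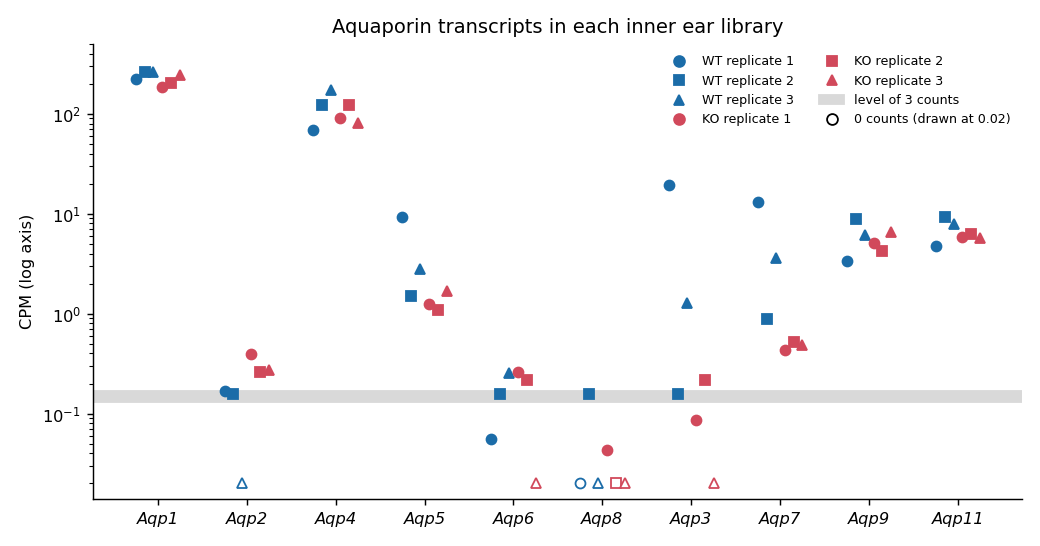
Level of each aquaporin in each library, in CPM on a log axis, with classical members and Aqp8 on the left, then the aquaglyceroporins Aqp3, Aqp7 and Aqp9, then Aqp11. Blue marks WT and red KO, marker shapes give the replicate, open markers at the bottom are libraries with 0 counts and the grey band is the level of 3 counts; WT replicate 1 (blue circle) is the highest library for Aqp3, Aqp5 and Aqp7 and the lowest for Aqp4, Aqp9 and Aqp11.

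**Figure D2:**
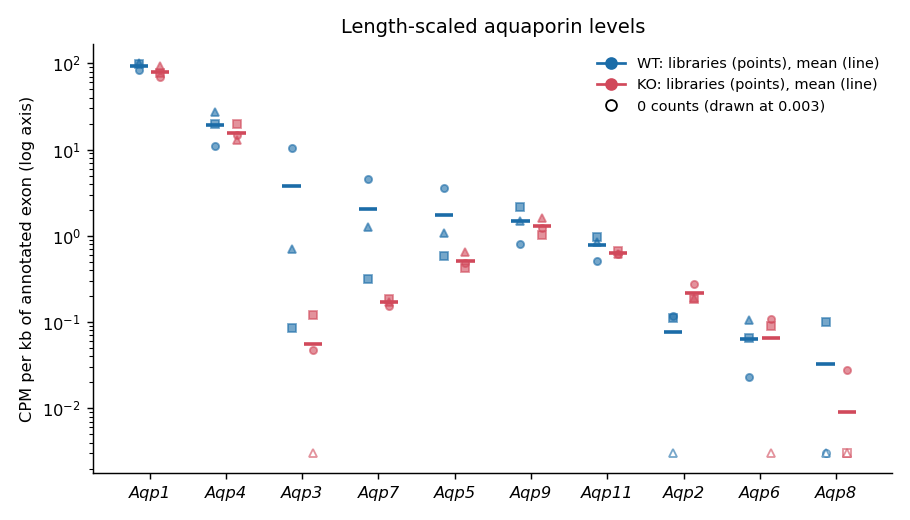
Level of each aquaporin per kb of annotated exon, in CPM per kb on a log axis, ordered by the WT mean. Points are libraries (shape by replicate, open at the bottom where 0 counts were held) and horizontal lines are means of 3 libraries; Aqp1 (94.1 in WT, 80.2 in KO) and Aqp4 (19.4 and 15.7) stand above all others in both genotypes.

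Whether loss of Pou3f4 changed the aquaporins was asked with 1 fit over all genes. Of the 10 members, 6 passed the filter on low counts and 0 of these passed the threshold of 0.05 on the adjusted p (edgeR's quasi-likelihood test, Benjamini-Hochberg over 19687 genes), where 0.396% of all tested genes did and 0.183% passed as lower in KO. With limma-voom 0 of the 6 passed (0.406% of all genes), and with DESeq2 only Aqp7 did (9.03% of all genes). At an unadjusted p under 0.05 there were 2, Aqp5 and Aqp7, against 19.6% of all genes. The filter let Aqp7 through on its WT libraries alone, which fixed its direction. The fitted changes of the other 5 lay below 0, with a median log2 fold change (KO over WT) of −0.30, while 51.0% of all tested genes lay below 0 with a median of −0.01. These 5 tested members are not the whole family, and each interval other than that of Aqp5 included 0. Aqp2, Aqp3, Aqp6 and Aqp8 were not tested. In bulk tissue, fewer cells of a type and less RNA per cell cannot be told apart.

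Aqp1, the water channel of fibrocytes, endothelium and red cells (ENSMUSG00000004655, mm10 chromosome 6, 55336432 to 55348555, plus strand), was even across the libraries. It stood at 221, 259 and 261 CPM in WT replicates 1 to 3 and at 184, 203 and 246 CPM in KO replicates 1 to 3. KO replicates 1 and 2 lay below every WT library, while KO replicate 3 lay among them, so the groups overlapped. Means of 247 ± 22.6 and 211 ± 31.8 CPM (SD over 3 libraries) gave a log2 fold change of −0.23 (SE 0.13, 95% interval −0.55 to 0.09, adjusted p = 0.382, edgeR). That interval reaches a lower level in KO by 0.55 on the log2 scale but little above 0.

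Markers of cells known to hold Aqp1 did not share 1 pattern. Summed levels of 11 red blood cell genes, none of them at 0 in every library, ran from 2052 to 8137 CPM in WT and from 2214 to 3558 CPM in KO. WT replicate 1 had the lowest sum and, at 221 CPM, also the lowest Aqp1 of the WT libraries. The sum of 12 endothelial genes, none at 0 in every library, ran from 624 to 845 CPM in WT and from 690 to 738 CPM in KO, with WT replicate 1 the highest. Among 13 spiral ligament genes, none at 0 in every library, the sums were 3666 to 5063 CPM in WT and 3181 to 3330 CPM in KO. These sums did not overlap, and for 12.7% of all tested genes every KO library lay below every WT library. The sum of WT replicate 1 included 1235 CPM of Vim, against 808 to 829 CPM in KO. The lack of overlap rested on Vim, without which that sum lay within the KO range. In WT replicate 1, Coch (203 CPM) and Otos (72.0 CPM) lay below every KO library. Of the 13 fitted changes, 9 lay below 0, with a median of −0.12, while Cp (0.59) and Tbx18 (0.40) were among those above 0. In that list Otor and Car3 passed the threshold, both lower in KO (2 of 13, where 0.396% of all genes passed). Neither passed with Xist as a term, nor in 4 of the 6 fits without 1 library (WT replicate 3 or any KO library). Their part in the level of Aqp1 was not tested.

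Aqp4, the channel of supporting cell and glial membranes (ENSMUSG00000024411, mm10 chromosome 18, 15389496 to 15410982, minus strand), varied more among WT libraries than between genotypes. It stood at 68.5, 123 and 172 CPM in WT replicates 1 to 3 and at 91.2, 122 and 80.7 CPM in KO replicates 1 to 3. All KO libraries lay inside the WT range. The means were 121 ± 51.5 and 98.0 ± 21.6 CPM, a log2 fold change of −0.31 (SE 0.33, 95% interval −1.09 to 0.48, adjusted p = 0.636, edgeR). Without WT replicate 3 the fitted change was 0.032 (adjusted p = 0.966), and without WT replicate 1 it was −0.60 (adjusted p = 0.12).

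The sum of 8 markers of glia of the central nervous system, none at 0 in every library, was 238, 497 and 580 CPM in WT replicates 1 to 3 and 367, 412 and 317 CPM in KO replicates 1 to 3. Aqp4 and this sum had the same order of libraries within WT and within KO. The list includes Gjb6 and Fabp7, which cochlear supporting cells also express. The astrocyte filament Gfap of this list, also picked after its values were known, lay between 47.9 and 120 CPM for WT and between 58.0 and 76.0 CPM for KO. The sum of 13 supporting cell genes, none at 0 in every library, was lowest in WT replicate 1 (512 CPM) and highest in WT replicate 2 (745 CPM), with 586 to 694 CPM in KO. Skeletal muscle, whose fast fibres carry Aqp4, had marker sums of 7088, 238 and 10846 CPM in WT and 79.7, 921 and 86.3 CPM in KO. WT replicate 1, with high muscle reads, had the lowest Aqp4 of all libraries, and WT replicate 3, with the most muscle reads, had the highest. The part of glia or muscle in the level of Aqp4 was not tested.

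Aqp5, a water channel of secretory epithelia and of the outer sulcus (ENSMUSG00000044217, mm10 chromosome 15, 99590782 to 99594829, plus strand), was high in a single library. It stood at 9.33, 1.51 and 2.80 CPM in WT replicates 1 to 3 and at 1.26, 1.09 and 1.68 CPM in KO replicates 1 to 3. WT replicate 2 lay below KO replicate 3, so the groups overlapped. The log2 fold change was −1.76 (SE 0.67, 95% interval −3.35 to −0.17, unadjusted p = 0.0350, adjusted p = 0.220, edgeR), and without WT replicate 1 it was −0.71 (adjusted p = 0.222). Of 8 outer sulcus and root cell genes, Slc26a7, an anion transporter, passed the threshold and was higher in KO (1 of 8, where 0.396% of all genes passed). Slc26a7 did not pass with Xist as a term or without WT replicate 3 or any 1 KO library. In the list 5 of 8 fitted changes lay below 0 (51.0% of all genes), with a median of −0.25. That list's sum was 559 CPM in WT replicate 1 and 553 to 624 CPM in the other libraries, with Epyc and Anxa1 as its most abundant members. Lgr5 of this list was highest in the same library as Aqp5 (31.8 CPM in WT replicate 1, 8.15 to 12.6 CPM elsewhere). So were Fst (36.1 CPM, 10.5 to 13.7 CPM elsewhere) and Anxa1 (213 CPM, 147 to 187 CPM elsewhere). Epyc (204 CPM), Slc26a7 (32.4 CPM) and Bmp4 (26.1 CPM) were instead lowest in WT replicate 1. These genes were picked with their values in view. The part of these cells in the level of Aqp5 was not tested.

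Aqp2, Aqp5 and Aqp6 lie side by side on chromosome 15, with gaps of 6.23 kb between Aqp2 and Aqp5 and 6.57 kb between Aqp5 and Aqp6, but only Aqp5 was above the level of a few counts in every library. Aqp2, the vasopressin-regulated channel of the kidney collecting duct, had 3, 3 and 0 reads counted in the WT libraries and 9, 6 and 5 in the KO libraries, in replicate order. Every KO library lay above every WT library on the CPM scale, as did 15.0% of all tested genes. An exact two-sided permutation test of the CPM of Aqp2 gave p = 0.1, the smallest that 3 against 3 libraries allow. In the edgeR fit with no filter its adjusted p was 0.464, so a change of Aqp2 was not shown. Aqp6, known from intracellular vesicles of the kidney, held 1, 3 and 5 counts in WT and 6, 5 and 0 in KO (exact permutation p = 0.9). Aqp8, a channel of gut, pancreas and liver, had 3 reads in the second WT library, 1 in the first KO library and none elsewhere. Differences in Aqp6 and Aqp8 were not detectable at this depth. Of the family genes outside the 10, the lens channel Mip stood at 0.0436 to 0.392 CPM, with 57.0% of its exons under Gm26847 on the opposite strand, and Aqp12 had 0 counts in all libraries.

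Among the aquaglyceroporins, Aqp7, the glycerol channel of fat cells (ENSMUSG00000028427, mm10 chromosome 4, 41033074 to 41048139, minus strand), was lower in every KO library than in any WT library. It stood at 13.0, 0.886 and 3.61 CPM in WT replicates 1 to 3 and at 0.435, 0.523 and 0.487 CPM in KO replicates 1 to 3. The KO libraries held 9 to 12 counts each, and 12.7% of all tested genes had all KO libraries below all WT libraries. Aqp7 passed the filter on low counts only through WT, where all 3 libraries reached its cutoff of 0.526 CPM of the unscaled total while 0 KO libraries did. A gene that passes in this way had to be lower in KO, so its lack of overlap supports nothing.

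The means of Aqp7 were 5.82 ± 6.33 and 0.482 ± 0.0440 CPM, a log2 fold change of −3.57 (SE 0.95, 95% interval −5.85 to −1.30, adjusted p = 0.142, edgeR). Aqp7 was thus not called. Without WT replicate 2 it was called (−4.08, adjusted p = 0.0318, edgeR, 3.78% of all genes), as it was by DESeq2 (−3.60, adjusted p = 0.000624). Without WT replicate 1 the change was −2.23 (adjusted p = 0.0678, 9.06% of all genes called), and the other 4 fits without 1 library gave adjusted p of 0.226 to 0.458.

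Aqp3, a channel of water and glycerol in the basal cells of skin and other epithelia (ENSMUSG00000028435, mm10 chromosome 4, 41092722 to 41098183, minus strand), lies 44.6 kb from Aqp7. It had 345, 3 and 25 reads counted in the WT libraries and 2, 5 and 0 in the KO libraries, in replicate order. These are 19.3, 0.156 and 1.27 CPM in WT and 0.0871, 0.218 and 0 CPM in KO. WT replicate 1 held most of the reads, and WT replicate 2 lay within the KO range. Aqp3 was left out by the filter on low counts, and an exact two-sided permutation test of its CPM gave p = 0.2. With no filter, edgeR's adjusted p was 0.178.

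Aqp3, Aqp5 and Aqp7 all had their highest level in WT replicate 1 and their second highest in WT replicate 3. The summed fat cell markers had the same order of WT libraries, though single markers such as Adipoq and Retn did not. The sum over 9 genes, none at 0 in every library, was 843, 80.2 and 182 CPM in WT replicates 1 to 3 and 72.4 to 76.1 CPM in KO. Cidec, a lipid droplet protein of fat cells, stood at 54.5, 0.782 and 3.00 CPM in WT and at 0.0435, 0 and 0 CPM in KO. Markers of glands and squamous epithelium summed to 1458, 185 and 314 CPM in WT replicates 1 to 3 and to 166 to 251 CPM in KO over 12 genes, none at 0 in every library. Krt5, a keratin of basal epithelial cells, stood at 183, 0.104 and 2.34 CPM in WT and at 0.0436 to 0.865 CPM in KO. Other members of the list were even, such as Epcam (51.3 to 67.3 CPM in WT, 66.8 to 74.6 CPM in KO) and Cdh1 (80.9 to 102 CPM and 81.9 to 97.8 CPM), which many epithelia share. The single markers here were picked with their values in view. The part of fat or epithelium in the levels of these aquaporins was not tested.

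Aqp9, the glycerol and urea channel of liver and leukocytes (ENSMUSG00000032204, mm10 chromosome 9, 71110659 to 71168682, minus strand), had overlapping levels in the genotypes. It stood at 3.35, 8.86 and 6.15 CPM in WT replicates 1 to 3 and at 5.09, 4.27 and 6.60 CPM in KO replicates 1 to 3. All KO libraries lay within the WT range, and WT held both the lowest and the highest library. The log2 fold change was −0.21 (SE 0.36, 95% interval −1.07 to 0.66, adjusted p = 0.785, edgeR), and without WT replicate 2 it was 0.16 (adjusted p = 0.809).

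Neutrophil markers, 12 genes with none at 0 in every library, summed to 224 CPM in WT replicate 1, the library with the lowest Aqp9, and to 1015 and 1338 CPM in WT replicates 2 and 3 and 948 to 1060 CPM in KO. Osteoclast markers, 10 genes with none at 0 in every library, summed to 4606 to 7231 CPM in WT and to 10357 to 11030 CPM in KO without overlap. In that list edgeR called 0 of the 10 genes, and 9 had an unadjusted p under 0.05, against 19.6% of all genes. DESeq2 called 8, all higher in KO, where it called 9.03% of all genes in either direction. For 15.0% of all tested genes, every KO library lay above every WT library. The part of neutrophils or osteoclasts in the level of Aqp9 was not tested.

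Aqp11, an aquaporin of intracellular membranes whose loss damages the kidney tubule (ENSMUSG00000042797, mm10 chromosome 7, 97724006 to 97738289, minus strand), had the smallest spread of the tested members at low level, with a coefficient of variation of 30.9% in WT and 5.02% in KO. Over all tested genes the medians were 17.3% in WT and 7.69% in KO. Aqp11 stood at 4.80, 9.17 and 7.98 CPM in WT replicates 1 to 3 and at 5.79, 6.27 and 5.73 CPM in KO replicates 1 to 3. The KO libraries lay between WT replicate 1 and the other WT libraries. The log2 fold change was −0.30 (SE 0.25, 95% interval −0.90 to 0.29, adjusted p = 0.532, edgeR). Without WT replicate 1 it was −0.54 (adjusted p = 0.0611).

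**Figure D3:**
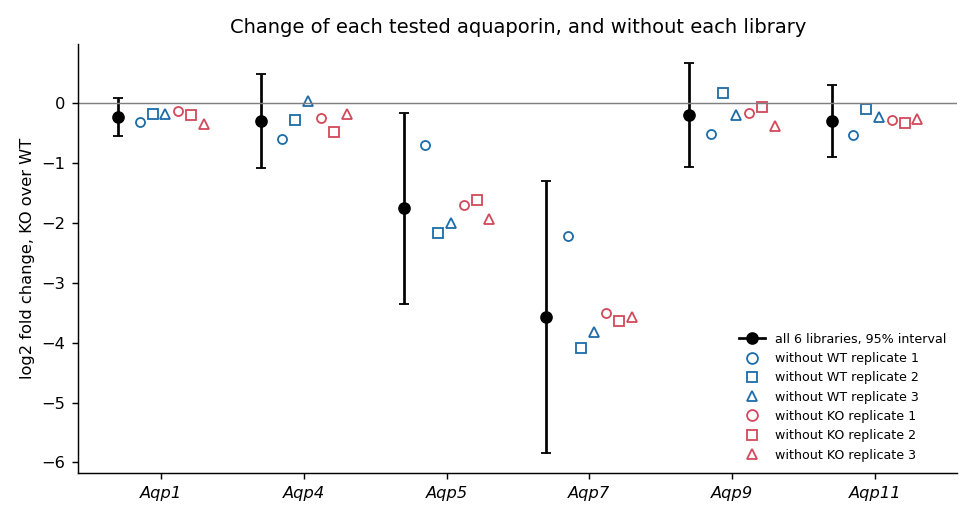
Log2 fold change of KO over WT for each tested aquaporin. Black points are fits to all 6 libraries with 95% intervals and open markers are fits without the named library. The intervals of Aqp1, Aqp4, Aqp9 and Aqp11 include 0. Without WT replicate 1 these lie at −0.32, −0.60, −0.51 and −0.54. Aqp5 then moves from −1.76 to −0.71 and Aqp7 from −3.57 to −2.23.

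**Figure D4:**
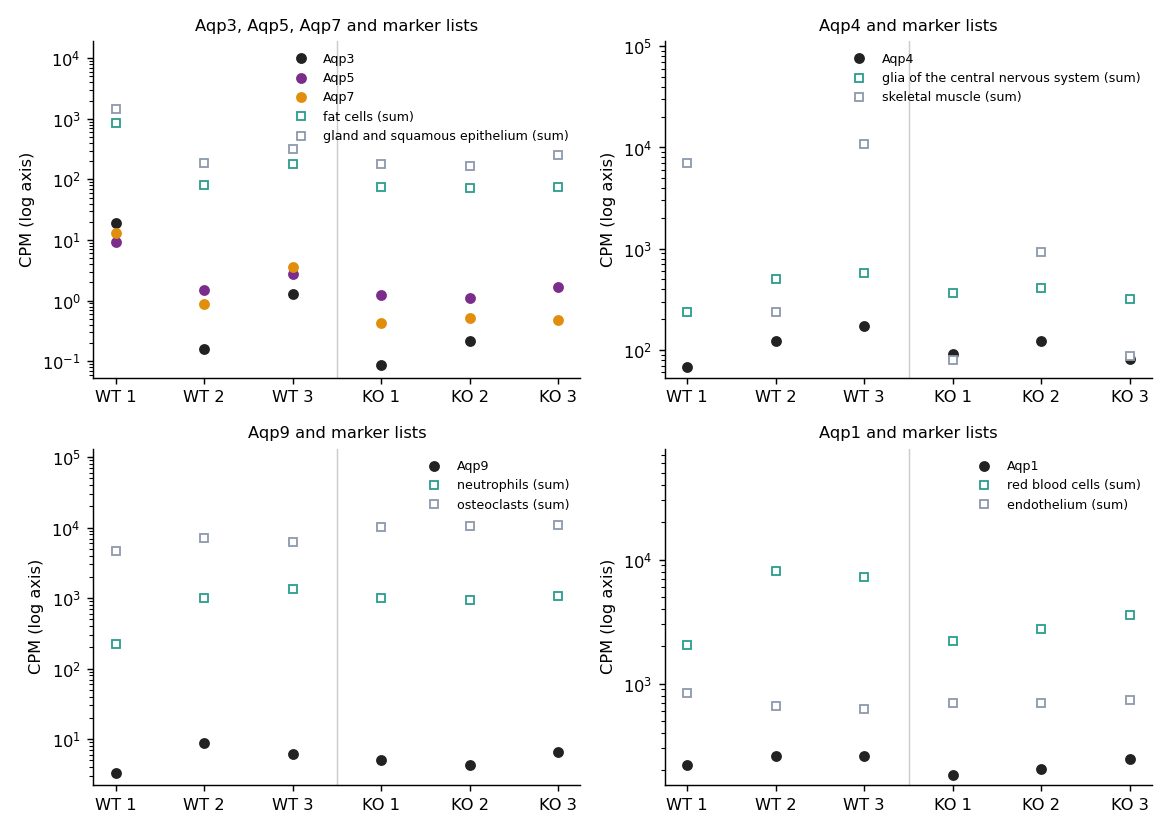
Levels of aquaporins (filled circles) and summed levels of marker lists (open squares) in each library, in CPM on log axes, with WT left and KO right of the grey line. Aqp3, Aqp5 and Aqp7 and the fat and epithelial sums are highest in WT replicate 1, Aqp4 has the library order of the glial sum within each genotype, and Aqp3 in KO replicate 3 (0 counts) is not drawn.

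Exons of the 10 aquaporins overlapped no exon of another annotated gene on either strand, so their counts are not shared with a neighbour. Genes AC133525.2, Gm47268 and Gm32511 lie over introns of Aqp4 and Aqp9 alone.

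Proteins that anchor aquaporins or control their transport were the first group of partner genes. Of 18 tested, 0 passed the threshold with edgeR (7 at an unadjusted p under 0.05), 0 passed with limma-voom and 5 were lower with DESeq2. Over all genes, 19.6% had such an unadjusted p and DESeq2 called 9.03%. The median log2 fold change was −0.23 and 16 lay below 0, as 51.0% of all genes did. The dystroglycan gene Dag1, part of the complex that holds Aqp4 at membranes, stood at 377, 279 and 326 CPM in WT and at 246, 233 and 251 CPM in KO (log2 fold change −0.43, SE 0.12, edgeR adjusted p = 0.157). Every KO library of Dag1 lay below every WT library, as for 12.7% of all genes. Agrin, Agrn, the matrix protein that binds dystroglycan, had nearly equal means of 168 ± 20.7 CPM (WT) and 166 ± 9.19 CPM (KO, SD over 3 libraries).

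Dystrophin, Dmd, singled out after its values were seen, stood at 44.5, 34.4 and 47.2 CPM in WT and at 22.0, 25.0 and 20.1 CPM in KO (log2 fold change −0.91, SE 0.15, edgeR adjusted p = 0.0630). This gene was among the 5 that DESeq2 called, with Dag1, Sntb1, Prkaca and Prkar2b, and edgeR called it without WT replicate 1 (−0.88, adjusted p = 0.0267) or WT replicate 2 but in no other fit without 1 library. Skeletal muscle also uses dystrophin, its marker sums are given above, and its part in the level of Dmd was not tested. The vasopressin receptor Avpr2, which acts upstream of Aqp2 in the kidney, stood at 0.838, 2.76 and 3.46 CPM in WT and at 2.74, 3.62 and 2.81 CPM in KO. The osmosensitive channel Trpv4 averaged 29.2 ± 4.70 CPM (WT) and 28.4 ± 1.79 CPM (KO). Avpr2 and Trpv4 were also chosen after their values were seen.

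Genes of the osmotic response and of cell volume control were the second group. Of 22 tested, 0 passed with edgeR (6 at an unadjusted p under 0.05) or limma-voom, with a median of −0.08. DESeq2 called Akr1b3 higher and Lrrc8b lower. Both counts were near the shares over all genes, 19.6% at that unadjusted p and 9.03% with DESeq2. The kinase Wnk1 averaged 226 ± 38.4 CPM (WT) and 236 ± 11.6 CPM (KO). The cotransporter Slc12a2, which loads chloride into cells, averaged 225 ± 31.1 and 198 ± 11.3 CPM. Akr1b3, aldose reductase, which makes the osmolyte sorbitol, stood at 59.3, 58.8 and 62.8 CPM in WT and at 78.9, 80.2 and 76.6 CPM in KO (log2 fold change 0.38, SE 0.07, edgeR adjusted p = 0.0706). All KO libraries of Akr1b3, chosen after its values were seen, lay above all WT libraries, as for 15.0% of all genes. Nfat5, the transcription factor of the osmotic response, stood at 114 ± 22.0 and 118 ± 13.9 CPM. Without WT replicate 1, where 9.06% of all genes passed, 5 genes of this list did, Akr1b3 higher and Clcn2, Clcn3, Lrrc8d and Stk39 lower. The other 5 fits without 1 library called 0 of them.

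Genes of glycerol handling and fat storage, the pathway of Aqp7, were the third group. Of 17 tested, 0 passed with edgeR (12 at an unadjusted p under 0.05, against 19.6% of all genes) or limma-voom, while DESeq2 called 9 lower (9.03% of all genes in either direction). Pck1 and Plin1 passed the filter on low counts through WT alone, which fixed their direction. Both are among the 9 and the 12, where they support nothing. The other 15 all had fitted changes below 0 (51.0% of all genes), with a median of −1.17, and the median of the 17 was −1.42. Without WT replicate 1 that median was −0.44 and 4 passed, Gpd2, Mgll, Pck1 and Plin1, all lower, where 9.06% of all genes passed. Without WT replicate 2 it was −1.75 and 5 passed, Plin1 among them (3.78% of all genes). The other 4 fits without 1 library called 0. Lpl, lipoprotein lipase, stood at 641, 285 and 344 CPM in WT and at 316, 310 and 320 CPM in KO. Mgll, which releases glycerol from monoglycerides, stood at 177, 93.6 and 106 CPM in WT and at 70.2, 75.4 and 82.2 CPM in KO (log2 fold change −0.72, SE 0.24, edgeR adjusted p = 0.179). Gk, glycerol kinase, stood at 156 CPM in WT replicate 1 and at 12.5 to 16.6 CPM in the other 5 libraries. Pck1, which supplies carbon for glycerol synthesis, stood at 88.4, 2.40 and 8.64 CPM in WT and had 0 counts in every KO library. Gk and Pck1 were named after their values were seen. WT replicate 1 was the highest library for Lpl, Mgll, Gk and Pck1, as it was for the fat cell markers.

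The genes whose pattern over the 6 libraries was most like that of an aquaporin were taken as the smallest root mean square difference in centred log2 CPM among 15033 protein-coding genes. For Aqp1, whose own SD over the libraries was 0.21, they were Llgl2, Tmem252 and Micall2 (differences of 0.05 to 0.06). For Aqp4 (SD 0.48) they were the neuropeptide Sst (0.07), the cadherin Cdh7 (0.09) and Sall3 (0.10). Sst stood at 8.16, 13.4 and 19.4 CPM in WT and at 9.62, 14.0 and 8.38 CPM in KO, the library order of Aqp4 within each genotype. For Aqp9 (SD 0.49) they were Otoa, the otoancorin of the sensory epithelium (0.08), Chst5 (0.08) and Depdc1b (0.09). Otoa stood at 19.3, 53.0 and 38.8 CPM in WT and at 34.1, 28.1 and 41.5 CPM in KO. For Aqp11 (SD 0.34) they were Amt, Dnajb2 and Fam184b (0.05 to 0.06). With 6 libraries and so many genes compared, close patterns describe these libraries alone.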

How the data were processed

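The authors deposited 1 table of raw read counts per gene for 6 libraries. Per the labels' protocols, RNA was extracted with TRIzol and libraries were made with a stranded mRNA kit. The tools listed, without roles, in the submitters' processing notes are HTSeq, HISAT2, Trimmomatic and Cufflinks, with the build mm10. For the annotation release and the strand setting, the sources used here give nothing. Exon lengths and overlaps came from GENCODE M21 on the same build (55141 of 55401 identifiers matched), and all 10 aquaporins had identical coordinates.

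Counts were analysed as deposited. Genes were kept with filterByExpr (minimum count 10), scaled by TMM and tested with glmQLFit and glmQLFTest of edgeR 4.0.16 (R 4.3.3), with genotype as the only term and all 6 libraries. The SE is the size of the fitted change divided by the square root of F. The 95% intervals use the total degrees of freedom of the test, residual plus prior. Alternatives used DESeq2 1.42.0 (which gave an adjusted p to 17744 genes), limma 3.58.1, other scalings and filters, a replicate block, Xist as a term, the removal of mitochondrial, haemoglobin and muscle genes, and the removal of each library. The edgeR step was run on simulated data with equal dispersion in both genotypes. These libraries differ from that setting (median coefficient of variation of 17.3% in WT and 7.69% in KO), so nothing is concluded from it here. No libraries matched within sampling noise. Genes were named by rule: all 10 members, up to 4 genes past the threshold of each partner list or else its 2 most abundant, and the 3 genes most like each member with a mean of at least 5 CPM. Other names were chosen after their values were seen. The members and lists were chosen with earlier results of these data known.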

Additional observations from a re-analysis of the deposited data

How the results depend on the processing

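Of 89 alternative fits of the 6 tested aquaporins, 87 gave a change below 0 and 85 kept both direction and side of the threshold. The exceptions were Aqp7, which passed with DESeq2 (−3.60) and without WT replicate 2, and Aqp4 and Aqp9, whose changes lay above 0 without WT replicate 3 (0.032) and WT replicate 2 (0.16). The cause was not tested. All these fits reuse the same 6 libraries, so their number is not a count of independent checks. The direction of Aqp7 was fixed by the filter in the main fit, so its refits say nothing for a fall in KO. Fits without 1 library ranged from −0.35 to −0.14 for Aqp1, −0.60 to 0.032 for Aqp4, −2.17 to −0.71 for Aqp5, −4.08 to −2.23 for Aqp7, −0.51 to 0.16 for Aqp9 and −0.54 to −0.11 for Aqp11. A filter at 1 CPM in 3 libraries left Aqp7 untested. The number of aquaporins past the threshold was 0 in all settings except DESeq2 (1) and the fits without 1 library (0 to 1).

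All genes past the threshold numbered 78, against 1603 with DESeq2, 1 with the replicate block, 0 with Xist as a term (3185 at an unadjusted p under 0.05, edgeR) and 0 to 1814 without 1 library. With edgeR 0 genes passed without WT replicate 3 (3364 at an unadjusted p under 0.05) or without any 1 of the KO libraries (2087 to 2638), 760 without WT replicate 2 and 1814 without WT replicate 1. Pairing of libraries by replicate number was not seen, as the deviations of same-numbered libraries correlated at −0.13, −0.29 and −0.19. It is not excluded, since deviations from a mean of 3 libraries depend on one another. The replicate block left the aquaporin changes between −2.97 (Aqp7) and −0.12 (Aqp9). Without WT replicate 1 the WT level of Aqp3 fell from 3.77 to 0.390 CPM per kb and that of Aqp7 from 2.06 to 0.795. Scaling by the longest coding transcript, chosen after seeing the data, moved 7 of 20 levels by more than 1 SD. Depth limits Aqp2, Aqp6 and Aqp8, with at most 9 counts in a library.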
